A study of Mus musculus with 24 samples.

Results

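The comparison described here sets macrophages that received a glucocorticoid together with a bacterial stimulus for 24 h against macrophages that received the stimulus alone for the same time. The cells were bone marrow-derived macrophages (BMDM) of WT C57BL/6J mice aged 8 to 12 weeks, grown from femur and tibia marrow after lysis of red cells. The dexamethasone plus LPS group was given 100 nM dexamethasone, a synthetic glucocorticoid, and 100 ng LPS (lipopolysaccharide, the endotoxin of Gram-negative bacteria) in a volume that the labels do not give. The LPS group was given the same LPS without dexamethasone. All cells shared a medium with 10% fetal calf serum, 1% penicillin/streptomycin and 10% L929 supernatant as the source of the growth factor M-CSF. The 6 libraries compared, 3 per group, are those labelled with these treatments at 24 h among 24 libraries in all. The other 18 libraries (untreated, dexamethasone alone and the same treatments at 4 h) served for the spread between replicates and for the comparisons with other conditions. All genes were considered: 55357 are listed, 25771 had no count in any library, 14601 had counts below the filter and 14985 were tested. The series title links the anti-inflammatory action of glucocorticoids to metabolism, and its design text asks how that action depends on time.

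LPS binds Toll-like receptor 4 and its co-receptors CD14 and MD-2, and the adaptors MyD88 and TRIF then activate NF-kB, MAP kinases and the interferon regulatory factor IRF3. Macrophages answer with cytokines, chemokines and interferon beta, and interferon beta acts back on the cells through its receptor to switch on antiviral genes. Over hours the same cells also turn towards glycolysis, stabilise the hypoxia-inducible factor HIF-1α, make nitric oxide through Nos2 and make itaconate through Acod1. Dexamethasone binds the glucocorticoid receptor (gene Nr3c1), which moves to the nucleus, binds DNA at response elements to raise genes such as Fkbp5 and Tsc22d3, and restrains NF-kB and AP-1 at others.

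The 6 libraries held 18951567 to 22071571 counts. Levels are given as CPM, counts divided by library size after scaling by TMM, a factor that aligns the bulk of genes. They are not corrected for gene length. Means are given ± SD over the 3 libraries of a group. Log2 fold changes are dexamethasone plus LPS over LPS alone, with an approximate standard error that is unreliable where a group has few counts. Adjusted p-values come from edgeR's quasi-likelihood F test and are corrected by Benjamini-Hochberg over the 14985 genes. No label states that replicates were separate mice or cultures. The p-values therefore measure the spread between these libraries only. The first principal component of the 6 libraries held 78.7% of the variance and placed the 3 dexamethasone plus LPS libraries on one side and the 3 LPS libraries on the other. Defining macrophage markers were present in both groups, with summed levels of 46100 to 47300 CPM with dexamethasone plus LPS and 53000 to 56900 CPM with LPS alone over the 12 markers, among them Adgre1, Csf1r, Cd68 and Lyz2. Most of both sums was Lyz2, at means of 33000 CPM with dexamethasone plus LPS and 39700 CPM with LPS alone. Of the 12 markers 3 were called higher and 6 lower. Mertk (278 CPM with dexamethasone plus LPS against 78.1 CPM with LPS alone), C1qa (920 against 388 CPM) and Itgam (716 against 570 CPM) had higher means. The mean of Tyrobp was slightly higher (589 against 566 CPM). Lower means were more frequent, among them Fcgr1 (180 against 508 CPM), Ctss (2170 against 3220 CPM), Cd14 (969 against 1310 CPM) and Adgre1 (4260 against 4920 CPM). Of 7 erythroid markers 5 had no count in the 6 libraries, and 10 of 13 lymphocyte markers, including Cd3e and Cd79a, had 10 counts or fewer in each group. The sum of the lymphocyte markers was nonetheless 93.2 to 115 CPM with dexamethasone plus LPS and 11.8 to 14.9 CPM with LPS alone. Il7r, the interleukin 7 receptor, made up nearly all of it with dexamethasone plus LPS, at a mean of 96.2 CPM against 5.51 CPM with LPS alone. Cd4, a co-receptor of T cells that some macrophages also carry, went the other way, at a mean of 2.18 CPM with dexamethasone plus LPS and 5.73 CPM with LPS alone. The stromal and endothelial markers summed to 7.97 to 9.16 CPM with dexamethasone plus LPS and 29.9 to 33.1 CPM with LPS alone, most of it with LPS alone Kdr, with Pdgfra at 0 throughout. The part of such cells in the results was not tested. In such bulk libraries, fewer cells of a type and less RNA of a gene per cell cannot be told apart.

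Dexamethasone under LPS changed 43.7% of the genes tested at 24 h, 21% upward and 22.6% downward. By 2-fold or more, 6.68% were higher and 5.78% lower. The median log2 fold change over all genes was 0.003 and the median of its absolute value 0.305, where TMM scaling itself holds the first of these near 0. Among protein-coding genes 48.8% were called, and among long non-coding RNAs 23.4%. The direction was often opposite to the early LPS response, which was measured in other libraries and in which 17.6% of genes were raised and 21.7% lowered by 2-fold or more at 4 h. Of 2630 genes that LPS alone had raised in that way, 42.2% were lower and 15.9% higher with dexamethasone plus LPS at 24 h, with a median of -0.24. Of 3249 genes that LPS had lowered in that way, 29.8% were higher and 12.5% lower (median 0.18). Of the other 9106 genes 19.4% were higher and 20.6% lower. The sizes of the 2 classes depend on the scaling, since scaling by library size alone puts 1622 genes in the first and 6346 in the second, with 43.5% lower in the first and 28% higher in the second.

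**Figure D1:**
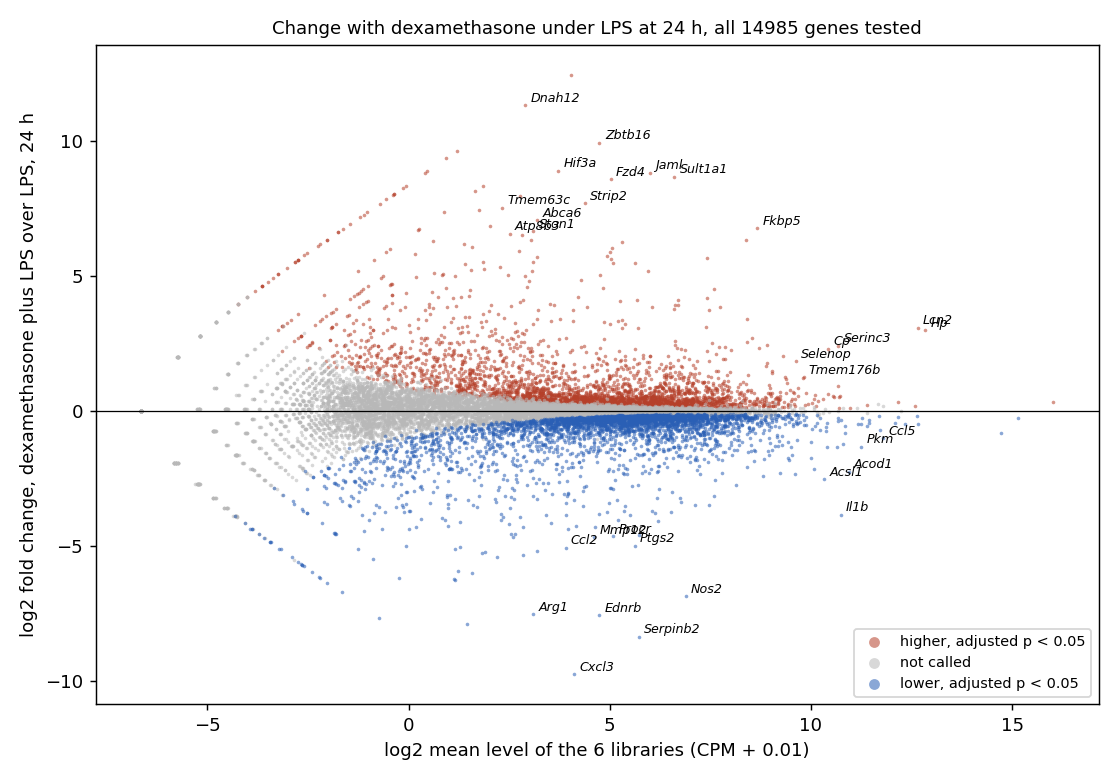
Log2 fold change (dexamethasone plus LPS over LPS alone, 24 h, vertical axis) of each of the 14985 genes tested against its log2 mean level over the 6 libraries (CPM + 0.01, horizontal axis). Red points were called higher, blue points lower and grey points not called at adjusted p < 0.05, and labels mark the genes with the largest changes and those with the highest levels among changes of 2-fold or more.

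The glucocorticoid receptor's classical targets mostly rose: 13 of 20 tested genes of that list were called higher and 6 lower, against 21% and 22.6% of all genes, and their median log2 fold change was 1.53. Another 2 of the 22 listed, Pdk4 and Fam107a, were below the filter, and with no filter the median over all 22 is 0.85. Fkbp5, a co-chaperone that lowers the receptor's affinity for hormone, was at 811, 797 and 795 CPM with dexamethasone plus LPS, against 7.62, 7.29 and 7.15 CPM with LPS alone. Every library of the first group lay far above every library of the second (log2 fold change 6.77 ± 0.08, adjusted p = 2.3e-37). Tsc22d3, which codes for the leucine zipper protein GILZ that binds NF-kB and AP-1 subunits, was at 379.6, 370.1 and 368 CPM with dexamethasone plus LPS, against 14.1, 16.1 and 18.8 CPM with LPS alone. Those groups are again far apart (log2 fold change 4.51 ± 0.07, adjusted p = 1.7e-33). Dusp1, the phosphatase that switches off p38 and JNK, was at 399, 343 and 314 CPM with dexamethasone plus LPS, against 72.7, 71.5 and 61.6 CPM with LPS alone. The lowest treated library of Dusp1 was still several times the highest LPS library (log2 fold change 2.36 ± 0.07, adjusted p = 4.4e-24).

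A pair of transcription factor genes of this list were close to silent under LPS alone. Zbtb16, also called PLZF, had 3082 counts over the 3 dexamethasone plus LPS libraries and 3 counts over the 3 LPS libraries, a ratio of 1.09e+03 (95% interval from the counts 372 to 5.28e+03). Hif3a, a member of the HIF family whose product can restrain HIF-1α, had 1507 counts with dexamethasone plus LPS and 3 with LPS alone, a ratio of 533 (182 to 2.59e+03). For both genes each treated library stood above every LPS library. Klf9, a Krüppel-like repressor, was at 97.2 ± 3.74 CPM with dexamethasone plus LPS and 2.14 ± 0.377 CPM with LPS alone (log2 fold change 5.49 ± 0.12, adjusted p = 5.8e-28). Ddit4, an inhibitor of the growth kinase mTORC1, was at 195 ± 11.2 CPM with dexamethasone plus LPS and 11.4 ± 1.13 CPM with LPS alone (log2 fold change 4.09 ± 0.08, adjusted p = 4.4e-31). Per1, a clock gene with a direct receptor response, was at 119.6 ± 5.64 CPM with dexamethasone plus LPS and 35.3 ± 3.38 CPM with LPS alone (log2 fold change 1.76 ± 0.07, adjusted p = 1.6e-22).

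The 6 targets that moved the other way included enzymes and feedback inhibitors. Tgm2, a transglutaminase, was at 53.5 ± 5.34 CPM with dexamethasone plus LPS and 167 ± 9.43 CPM with LPS alone (log2 fold change -1.64 ± 0.10, adjusted p = 1.4e-12). Errfi1, a feedback inhibitor of the EGF receptor, was at 10.4 ± 0.565 CPM with dexamethasone plus LPS and 23 ± 1.13 CPM with LPS alone (log2 fold change -1.15 ± 0.15, adjusted p = 3.7e-07). Sgk1, a kinase gene named for serum and glucocorticoid, was lower too (log2 fold change -0.71 ± 0.07, adjusted p = 7.6e-10). Gadd45b was lower as well (log2 fold change -0.52 ± 0.07, adjusted p = 1.2e-07). Zfp36, which codes for the mRNA decay factor tristetraprolin, was at 61.7 ± 4.8 CPM with dexamethasone plus LPS and 76.5 ± 7.74 CPM with LPS alone (log2 fold change -0.31 ± 0.09, adjusted p = 0.0043). Nr3c1, the receptor itself, was at 188, 169 and 169 CPM with dexamethasone plus LPS and at 160.3, 168 and 158 CPM with LPS alone. That difference did not pass the test (log2 fold change 0.11 ± 0.06, adjusted p = 0.095), but did pass with RLE scaling factors (0.139, adjusted p = 0.0408), with library size only (0.148, adjusted p = 0.0181) or with DESeq2 (0.139, adjusted p = 0.0425). Among 20 genes of the receptor and its partners 4 rose and 7 fell, with a median of -0.03. The falls included the chaperones Hsp90aa1 (log2 fold change -0.78 ± 0.05, adjusted p = 5.6e-16) and Hsp90ab1 (log2 fold change -0.66 ± 0.04, adjusted p = 4.9e-15), which hold the receptor ready for hormone, and Abcb1a, a drug efflux pump (log2 fold change -2.06 ± 0.40, adjusted p = 7.2e-05). The rises included the co-activators Ncoa1 (log2 fold change 0.51 ± 0.08, adjusted p = 4e-06) and Ncoa2 (log2 fold change 0.39 ± 0.09, adjusted p = 0.0009).

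**Figure D2:**
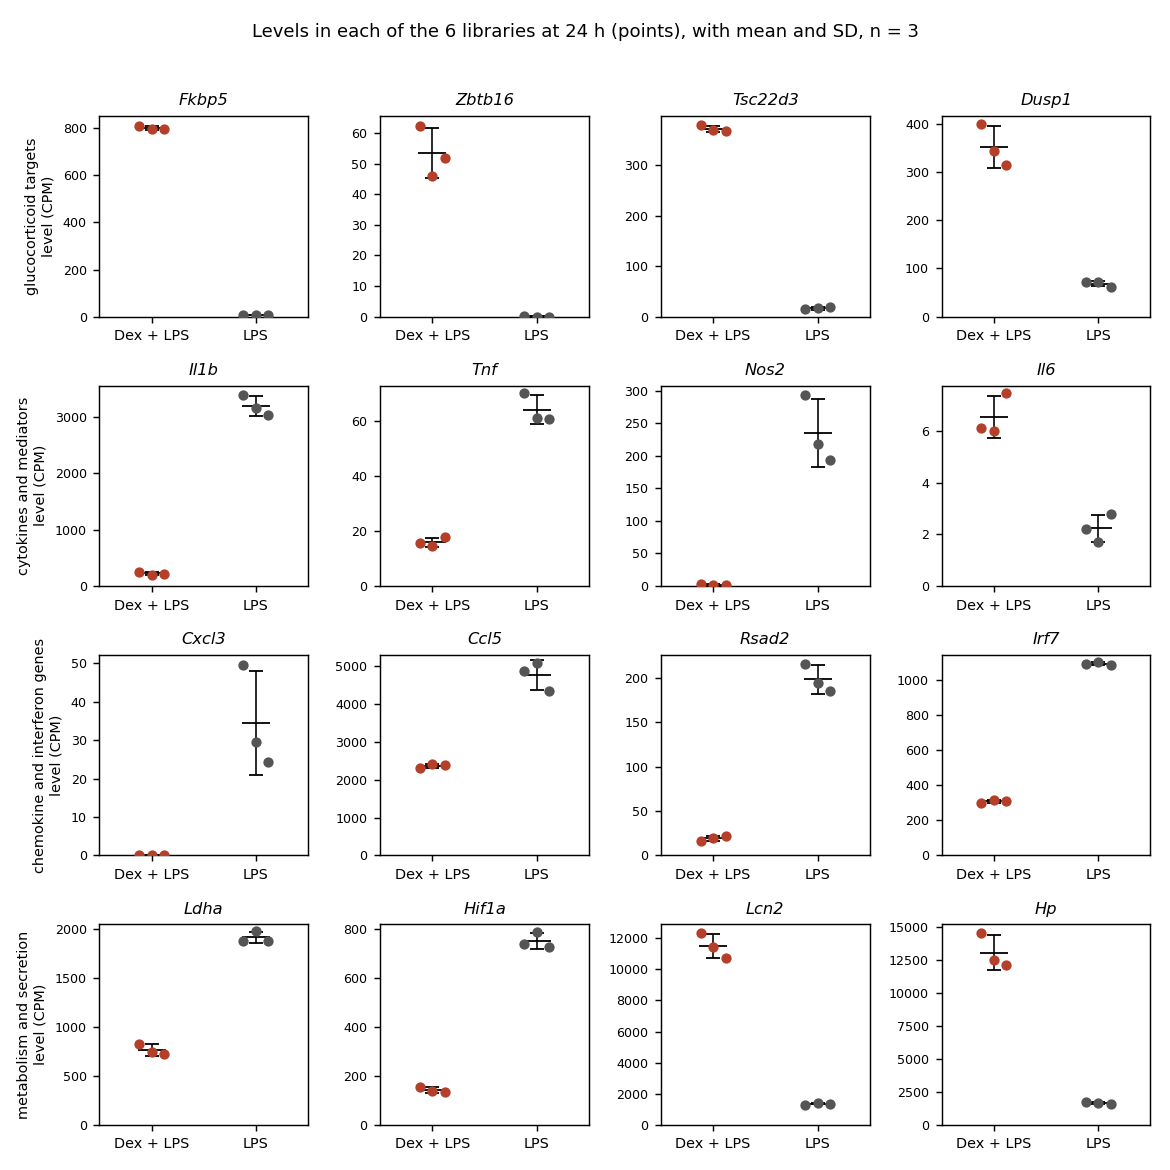
Levels (CPM, vertical axes starting at 0) of 16 genes in each of the 3 dexamethasone plus LPS libraries (red, left) and the 3 LPS libraries (grey, right) at 24 h, with mean and SD. Within each panel the 2 groups are apart: Fkbp5, Zbtb16, Tsc22d3, Dusp1, Il6, Lcn2 and Hp are higher with dexamethasone, and Il1b, Tnf, Nos2, Cxcl3, Ccl5, Rsad2, Irf7, Ldha and Hif1a are lower.

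Inflammatory cytokines were next, and 10 of 17 tested genes fell while 2 rose (median -0.64). Il1b, the precursor of the fever-inducing cytokine IL-1β, was at 249, 199.6 and 219 CPM with dexamethasone plus LPS, against 3394, 3149 and 3041 CPM with LPS alone. All 3 treated libraries were below 10% of the lowest LPS library. Il12b, the shared subunit of IL-12 and IL-23, was at 0.0866 ± 0.0296 CPM with dexamethasone plus LPS and 0.741 ± 0.31 CPM with LPS alone (log2 fold change -3.00 ± 0.62, adjusted p = 0.00019). Il15, a growth factor for NK and memory T cells, was at 6.5 ± 1.03 CPM with dexamethasone plus LPS and 27.4 ± 2.88 CPM with LPS alone (log2 fold change -2.07 ± 0.13, adjusted p = 9.4e-14). Ifnb1, the interferon beta gene, had no count in the dexamethasone plus LPS libraries and 18 in the LPS libraries, at least 5.66-fold lower against a floor of 3 counts over the group. Il6, a cytokine that drives the acute phase response in liver, stood out in the opposite direction, at 6.13, 6 and 7.48 CPM with dexamethasone plus LPS and 2.2, 1.72 and 2.78 CPM with LPS alone. Its groups do not overlap (log2 fold change 1.54 ± 0.18, adjusted p = 1.1e-07). Tnfsf15, a TNF family cytokine, was also higher (19.6 ± 2.51 CPM with dexamethasone plus LPS against 14.4 ± 1.73 CPM with LPS alone, log2 fold change 0.44 ± 0.10, adjusted p = 0.00025). The other 5 did not pass the test, among them Il18 at -0.18 ± 0.16 and Tnfsf9 at -0.15 ± 0.11 on the log2 scale. Without dexamethasone plus LPS library 1, Tnfsf9 is at -0.327 and passes (adjusted p = 0.0166).

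A list of cytokine antagonists and signalling brakes, which also holds cytokine receptors such as Tnfrsf1a and Il10ra, was split, with 7 of 16 genes higher and 7 lower. Il1r2, the decoy receptor that captures IL-1 without signalling, was at 21.1, 18.4 and 14.3 CPM with dexamethasone plus LPS, against 0.229, 0.469 and 0.347 CPM with LPS alone. Il1r2 was thus near background in all LPS libraries and clearly present in all treated ones (log2 fold change 5.68 ± 0.37, adjusted p = 1.2e-14). Its counterpart Il1rn, the soluble IL-1 receptor antagonist, went the other way, at 31, 28.7 and 25.2 CPM with dexamethasone plus LPS and 128, 116 and 109 CPM with LPS alone (log2 fold change -2.05 ± 0.12, adjusted p = 1.6e-11). Socs1, which blocks JAK-STAT signalling from the interferon receptor, fell (4.33 ± 0.747 CPM with dexamethasone plus LPS against 26.2 ± 2.55 CPM with LPS alone, log2 fold change -2.60 ± 0.15, adjusted p = 1.9e-14). Socs2 rose (log2 fold change 3.06 ± 0.46, adjusted p = 9.7e-07). Sigirr, a brake on IL-1 and Toll-like receptors, was higher (log2 fold change 1.55 ± 0.40, adjusted p = 0.0016). Il6ra, the IL-6 receptor, was higher as well (193 ± 13.7 CPM with dexamethasone plus LPS against 81.3 ± 5.26 CPM with LPS alone, log2 fold change 1.25 ± 0.07, adjusted p = 5.1e-18). Il10 was higher at low levels (log2 fold change 1.18 ± 0.35, adjusted p = 0.0082), and that call is lost without dexamethasone plus LPS library 3 (0.815, adjusted p = 0.0769) or without LPS library 3 (0.906, adjusted p = 0.0505).

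Chemokine genes held some of the steepest falls. Of 11 tested CXC chemokines 9 were lower and none higher, with a median log2 fold change of -3.73. Without dexamethasone plus LPS library 1 or LPS library 3, 12 were tested and 1 was higher. Cxcl3, a neutrophil attractant acting on CXCR2, had 2 counts over the dexamethasone plus LPS libraries and 2138 over the LPS libraries, 1.01e+03 times fewer (95% interval from the counts 279 to 8.33e+03). It was at 0, 0 and 0.104 CPM with dexamethasone plus LPS, against 49.7, 29.5 and 24.2 CPM with LPS alone, where 1 library was higher than the other two. The related Cxcl1 was at 0.628, 0.259 and 0.519 CPM with dexamethasone plus LPS, against 11.1, 13.3 and 8.98 CPM with LPS alone (log2 fold change -4.55 ± 0.29, adjusted p = 8.1e-12). Cxcl10, an attractant of activated T cells, was at 2.99, 4.45 and 5.4 CPM with dexamethasone plus LPS, against 98.5, 105 and 104 CPM with LPS alone (log2 fold change -4.58 ± 0.17, adjusted p = 1.1e-14). The groups did not overlap for either gene, as held for 55.2% of all genes tested. Cxcl9, a further T cell attractant, was not called (2.08 ± 0.414 CPM with dexamethasone plus LPS against 2.84 ± 0.675 CPM with LPS alone, log2 fold change -0.46 ± 0.24, adjusted p = 0.14).

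The promoter windows of Cxcl3 and Cxcl1 are shown because these paralogous genes fell furthest among neutrophil attractants and both carry the κB core searched here. RefSeq windows of GRCm38.p6 run from 250 bases before to 50 after a start. The core is GGGA, any 2 bases and TTCC, sought on both strands. It occurs in 1.5% of all 32851 windows, in 3.1% of the windows of genes lower by 2-fold or more and in 4 of 8 windows (50%) of the CXC chemokines. In the Cxcl3 window (chr5:90785851-90786150, plus strand) and the Cxcl1 window (chr5:90890995-90891294, plus strand) capitals mark a pair of overlapping matches, which begin 73 and 72 bases before the start of Cxcl3 and 71 and 70 bases before that of Cxcl1.
Cxcl3: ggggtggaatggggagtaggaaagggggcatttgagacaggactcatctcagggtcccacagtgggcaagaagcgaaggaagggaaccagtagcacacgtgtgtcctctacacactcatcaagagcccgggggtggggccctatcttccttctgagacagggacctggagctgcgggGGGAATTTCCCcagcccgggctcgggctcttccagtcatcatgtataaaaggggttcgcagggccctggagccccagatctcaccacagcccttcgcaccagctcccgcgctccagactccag
Cxcl1: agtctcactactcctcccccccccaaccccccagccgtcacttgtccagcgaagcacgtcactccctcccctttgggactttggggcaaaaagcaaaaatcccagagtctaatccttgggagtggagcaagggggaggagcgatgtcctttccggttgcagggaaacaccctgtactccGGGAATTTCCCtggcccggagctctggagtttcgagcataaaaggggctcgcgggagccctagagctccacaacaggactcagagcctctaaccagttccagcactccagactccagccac
A match is a run of letters and does not show that NF-kB bound there in these cells.

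Among 13 tested CC chemokines 9 fell and 2 rose (median -1.66). Ccl2, which recruits monocytes through CCR2, was at 0.524, 1.14 and 0.935 CPM with dexamethasone plus LPS and at 26.2, 35.6 and 25.2 CPM with LPS alone, with every treated library below every LPS library. Ccl7, another CCR2 ligand, fell alongside (0.208 ± 0.0522 CPM with dexamethasone plus LPS against 8.99 ± 1.03 CPM with LPS alone, log2 fold change -5.39 ± 0.44, adjusted p = 2.6e-09). Ccl12 was lower too (log2 fold change -3.54 ± 0.30, adjusted p = 3.8e-12). Ccl22, a ligand of CCR4 on regulatory and helper T cells, had 4 counts with dexamethasone plus LPS and 279 with LPS alone, 65.8 times fewer (25.4 to 243). Ccl5, also known as RANTES, kept a high level while falling, at 2299, 2413 and 2379 CPM with dexamethasone plus LPS and 4883, 5086 and 4334 CPM with LPS alone (log2 fold change -1.01 ± 0.08, adjusted p = 3.5e-10). One of the 2 rises was Ccl3, also known as MIP-1α (108 ± 14.5 CPM with dexamethasone plus LPS against 89.9 ± 4.88 CPM with LPS alone, log2 fold change 0.27 ± 0.07, adjusted p = 0.0026), and its call is lost without dexamethasone plus LPS library 1 (0.154, adjusted p = 0.0707). The other was Ccl17, a second CCR4 ligand, with 54 counts with dexamethasone plus LPS and 2 with LPS alone, a ratio of 28.6 (7.55 to 242). Of 17 chemoattractant receptors 3 rose and 8 fell, beside 21% and 22.6% of all genes. Cxcr4, the receptor that retains cells in marrow, was higher (46.5 ± 8.04 CPM with dexamethasone plus LPS against 29.5 ± 3.09 CPM with LPS alone, log2 fold change 0.65 ± 0.16, adjusted p = 0.0029). The formyl peptide receptors Fpr1 and Fpr2, which sense bacterial and mitochondrial peptides, did not pass the test, at log2 fold changes of 0.03 ± 0.10 and -0.04 ± 0.10.

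Interferon-stimulated genes moved in 1 direction. All 34 tested genes of that list were lower with dexamethasone plus LPS, 26 of them by 2-fold or more (5.78% of all genes), with a median of -1.42 beside 0.003 for all genes. Rsad2, the antiviral enzyme viperin, was at 16.7, 19.1 and 22.2 CPM with dexamethasone plus LPS, against 216, 194 and 185 CPM with LPS alone. Its highest treated library was far below its lowest LPS library (log2 fold change -3.36 ± 0.19, adjusted p = 7.7e-11). Ifit2, which binds viral RNA, was at 21.2, 32.7 and 32.4 CPM with dexamethasone plus LPS, against 319.6, 325 and 322 CPM with LPS alone (log2 fold change -3.49 ± 0.22, adjusted p = 4.1e-10). Mx1, a dynamin-like antiviral GTPase, was at 14 ± 2.87 CPM with dexamethasone plus LPS and 130.3 ± 4.13 CPM with LPS alone (log2 fold change -3.22 ± 0.19, adjusted p = 8.8e-11). Ifi44 was at 9.41 ± 1.18 CPM with dexamethasone plus LPS and 122 ± 9.91 CPM with LPS alone (log2 fold change -3.70 ± 0.24, adjusted p = 4.1e-10). Irf7, the factor that amplifies interferon production, was at 309 ± 7.61 CPM with dexamethasone plus LPS and 1096 ± 9.14 CPM with LPS alone (log2 fold change -1.83 ± 0.11, adjusted p = 2.4e-11). Signal transducers of the interferon response were lower too, with Stat2 at -1.45 ± 0.07 and Irf9 at -0.47 ± 0.06 on the log2 scale.

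All 15 tested interferon-inducible GTPases, which attack vacuoles that hold pathogens, were lower as well (median -1.55). Iigp1 was at 1.78 ± 0.638 CPM with dexamethasone plus LPS and 33.9 ± 6.09 CPM with LPS alone (log2 fold change -4.24 ± 0.27, adjusted p = 2.6e-10). Tgtp2 was at 7.99 ± 0.991 CPM with dexamethasone plus LPS and 59.7 ± 8.9 CPM with LPS alone (log2 fold change -2.90 ± 0.19, adjusted p = 2.8e-10). Gbp3 was at 19.1 ± 1.83 CPM with dexamethasone plus LPS and 93 ± 7.84 CPM with LPS alone (log2 fold change -2.28 ± 0.15, adjusted p = 3.3e-10). Tgtp1 and Tgtp2 are near-identical copies, and reads that match both were not counted, so their separate values are uncertain. Among 14 windows of interferon-stimulated genes with the response element core, out of 29 windows (48.3%), those of Rsad2 and Ifit1 are printed. Both genes fell by more than 2-fold and their matches lie close to the start. The core is GAAA, any 2 bases and GAAA. It was sought on both strands and occurs in 3.4% of all windows, in 8.6% of the windows of genes lower by 2-fold or more, in 2.8% of those higher, and in 9 of 11 windows (81.8%) of the GTPases. Ifit1, an RNA-binding antiviral protein, was at 57.1 ± 8.11 CPM with dexamethasone plus LPS and 337 ± 9.97 CPM with LPS alone (log2 fold change -2.56 ± 0.17, adjusted p = 9.2e-10). Capitals mark the match, 120 bases before the start in Rsad2 (chr12:26456403-26456702, minus strand) and 104 and 85 bases before the start in Ifit1 (chr19:34640639-34640938, plus strand).
Rsad2: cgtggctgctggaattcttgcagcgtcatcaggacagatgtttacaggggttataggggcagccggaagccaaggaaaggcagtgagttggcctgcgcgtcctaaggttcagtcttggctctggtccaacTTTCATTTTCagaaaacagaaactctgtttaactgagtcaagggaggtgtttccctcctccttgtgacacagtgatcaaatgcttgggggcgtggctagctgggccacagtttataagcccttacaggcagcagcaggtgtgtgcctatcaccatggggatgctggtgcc
Ifit1: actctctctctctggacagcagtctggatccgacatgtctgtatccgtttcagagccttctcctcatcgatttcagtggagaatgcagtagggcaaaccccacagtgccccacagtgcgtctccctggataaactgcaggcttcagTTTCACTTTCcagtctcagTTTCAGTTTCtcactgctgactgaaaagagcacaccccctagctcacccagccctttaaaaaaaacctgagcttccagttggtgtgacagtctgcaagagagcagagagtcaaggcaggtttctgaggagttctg
In both windows the letters stand as the reverse complement of the core.

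Antigen presentation followed the same direction. All 19 tested genes of MHC class I and peptide loading were lower (median -0.82). H2-Q7, a non-classical class I gene, was at 15.8 ± 1.49 CPM with dexamethasone plus LPS and 68 ± 2.71 CPM with LPS alone (log2 fold change -2.11 ± 0.15, adjusted p = 6e-11). H2-Q4 was at 93.1 ± 5.4 CPM with dexamethasone plus LPS and 277 ± 9.36 CPM with LPS alone (log2 fold change -1.58 ± 0.07, adjusted p = 6.2e-19). Q-region genes share sequence, so their separate values are uncertain. Nlrc5, the transactivator of class I genes, was at 60.8 ± 3.83 CPM with dexamethasone plus LPS and 152 ± 8.66 CPM with LPS alone (log2 fold change -1.32 ± 0.08, adjusted p = 1.5e-14). For class II and co-stimulatory genes the count was 12 lower and 2 higher of 17 (median -0.82). Ciita, the class II transactivator, was at 0.89, 0.569 and 1.04 CPM with dexamethasone plus LPS, against 8.12, 7.71 and 8.19 CPM with LPS alone (log2 fold change -3.26 ± 0.25, adjusted p = 1.9e-12). The class II chains H2-Aa (20.9 ± 2.44 CPM with dexamethasone plus LPS against 97.2 ± 6.65 CPM with LPS alone, log2 fold change -2.22 ± 0.19, adjusted p = 1.7e-08) and H2-Eb1 (log2 fold change -2.84 ± 0.20, adjusted p = 1.4e-09) were lower with it. Cd274, which codes for the T cell inhibitory ligand PD-L1, was at 74.8 ± 4.93 CPM with dexamethasone plus LPS and 371 ± 10.9 CPM with LPS alone (log2 fold change -2.31 ± 0.07, adjusted p = 1.3e-23). The 2 rises were co-stimulatory ligands, Cd80, at 22.6, 21.8 and 25 CPM with dexamethasone plus LPS and 3.03, 3.28 and 4.52 CPM with LPS alone (log2 fold change 2.68 ± 0.14, adjusted p = 6.8e-18), and Icosl (log2 fold change 1.42 ± 0.10, adjusted p = 5.3e-12). Beside these, the 9 dendritic cell markers summed to 1.19 to 1.52 CPM with dexamethasone plus LPS and 4.13 to 6.45 CPM with LPS alone, with Cd209a at 0 in all 6 libraries and Ccr7 the largest part of the sum under LPS. Of 9 tested markers 2 fell and none rose, and their part in the class II result was not tested.

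Signalling genes upstream of these targets had medians closer to 0. Of 18 genes of the NF-kB family and its feedback 11 fell and 2 rose (median -0.29). The subunits Rela (-0.56 ± 0.05), Nfkb2 (-0.60 ± 0.05) and Relb (-0.57 ± 0.06) were lower on the log2 scale, and Nfkb1 was not called (log2 fold change 0.01 ± 0.05, adjusted p = 0.95). The 2 rises were inhibitors. Tnfaip3, the ubiquitin-editing enzyme A20 that shuts off NF-kB, was at 360.1, 338 and 334 CPM with dexamethasone plus LPS, against 136, 136 and 135 CPM with LPS alone (log2 fold change 1.34 ± 0.09, adjusted p = 7.2e-12). Nfkbia, the inhibitor IκBα, was at 481 ± 20.4 CPM with dexamethasone plus LPS and 369 ± 2.12 CPM with LPS alone (log2 fold change 0.38 ± 0.05, adjusted p = 1.8e-07).

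Of 22 genes of the Toll-like receptor pathway 7 rose and 11 fell. Tlr4, the LPS receptor, was at 81.6 ± 7.89 CPM with dexamethasone plus LPS and 133 ± 4.88 CPM with LPS alone (log2 fold change -0.71 ± 0.07, adjusted p = 2.7e-11). Its co-receptor Cd14 was at 969 ± 65.4 CPM with dexamethasone plus LPS and 1314 ± 46.2 CPM with LPS alone (log2 fold change -0.44 ± 0.06, adjusted p = 3.5e-08). Tlr5, the receptor for bacterial flagellin, was at 7.54, 8.7 and 8.05 CPM with dexamethasone plus LPS, against 0.0918, 0 and 0.0993 CPM with LPS alone. It had 467 counts in the first group and 4 in the second (log2 fold change 6.83 ± 0.43, adjusted p = 1.1e-14). Tlr13, a sensor of bacterial ribosomal RNA, and Tlr9, a sensor of CpG DNA, were higher (log2 fold change 1.08 ± 0.06, adjusted p = 1.1e-16; log2 fold change 0.76 ± 0.15, adjusted p = 0.00018). Of 12 inflammasome genes 3 rose and 7 fell, among them Casp1, the protease that matures IL-1β (96.5 ± 1.9 CPM with dexamethasone plus LPS against 152 ± 5.06 CPM with LPS alone, log2 fold change -0.66 ± 0.05, adjusted p = 5.1e-13). Pycard, the adaptor ASC, was higher (89.8 ± 7.08 CPM with dexamethasone plus LPS against 39.6 ± 1.86 CPM with LPS alone, log2 fold change 1.18 ± 0.08, adjusted p = 8.7e-16). Gsdmd, the pore-forming gasdermin D, did not pass the test (log2 fold change 0.11 ± 0.06, adjusted p = 0.11), but does with scaling by library size only (0.144, adjusted p = 0.0283).

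Among MAP kinase phosphatases 3 of 12 rose and 5 fell, beside 21% and 22.6% of all genes. Dusp2 joined Dusp1 above (13.7 ± 2.01 CPM with dexamethasone plus LPS against 2.76 ± 0.275 CPM with LPS alone, log2 fold change 2.32 ± 0.16, adjusted p = 1.1e-12). Dusp4, which acts on ERK and JNK, was lower (2.46 ± 0.336 CPM with dexamethasone plus LPS against 15.5 ± 3.91 CPM with LPS alone, log2 fold change -2.66 ± 0.18, adjusted p = 1.8e-13). Among 11 cytokine mRNA decay genes 4 rose, including Zfp36l1 (log2 fold change 0.83 ± 0.07, adjusted p = 4.9e-13) and Zc3h12c (log2 fold change 0.71 ± 0.07, adjusted p = 5.1e-10), and 2 fell. Of 19 AP-1 and immediate early genes 6 rose and 10 fell (median -0.88). Atf3, a stress-induced repressor, was at 19.2, 23.4 and 20.2 CPM with dexamethasone plus LPS, against 205, 198 and 182 CPM with LPS alone (log2 fold change -3.22 ± 0.08, adjusted p = 4e-25). Egr1, a growth factor-induced zinc finger gene, was at 0.503 ± 0.162 CPM with dexamethasone plus LPS and 12 ± 2.71 CPM with LPS alone (log2 fold change -4.56 ± 0.41, adjusted p = 3.7e-09). Nr4a1, the orphan nuclear receptor Nur77, rose and was at 7.88 ± 1.9 CPM with dexamethasone plus LPS and 0.955 ± 0.232 CPM with LPS alone (log2 fold change 3.02 ± 0.24, adjusted p = 4.1e-13). Myc, the growth regulator, was at 2.23 ± 0.706 CPM with dexamethasone plus LPS and 0.352 ± 0.178 CPM with LPS alone (log2 fold change 2.62 ± 0.42, adjusted p = 1.3e-05). Klf4, a factor linked to alternative activation, was at 66.5, 55 and 52.6 CPM with dexamethasone plus LPS, against 6.56, 6.4 and 5.66 CPM with LPS alone (log2 fold change 3.22 ± 0.13, adjusted p = 5.8e-17). Irf1 (log2 fold change -1.33 ± 0.07, adjusted p = 2.3e-18) and Bhlhe40 (log2 fold change -2.34 ± 0.17, adjusted p = 1.7e-12), both drivers of inflammatory genes, were lower, and the lineage factor Spi1 (PU.1) was not called (log2 fold change -0.06 ± 0.05, adjusted p = 0.31).

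Arginine is the shared substrate of nitric oxide synthase and arginase, and both arms fell. Nos2, the inducible nitric oxide synthase, was at 3.35, 1.19 and 1.56 CPM with dexamethasone plus LPS, against 293, 218 and 193 CPM with LPS alone. Arg1, arginase 1, often used as a mark of alternative activation, was at 0.0524, 0.0518 and 0.156 CPM with dexamethasone plus LPS, against 18, 19.7 and 13.4 CPM with LPS alone. For both genes every treated library was below 2% of the lowest LPS library. Ass1, which rebuilds arginine from citrulline, was at 23.9 ± 2.52 CPM with dexamethasone plus LPS and 106 ± 10.5 CPM with LPS alone (log2 fold change -2.15 ± 0.11, adjusted p = 1.9e-15). Arg2, the mitochondrial arginase, was lower (log2 fold change -2.08 ± 0.21, adjusted p = 6e-10). Over the list of nitric oxide, arginine and tetrahydrobiopterin 8 of 12 genes fell and 2 rose (median -0.45).

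Eicosanoid genes separated by enzyme. Ptgs2, the inducible cyclooxygenase COX-2, was at 3.82, 2.12 and 3.06 CPM with dexamethasone plus LPS, against 101, 100.3 and 84.1 CPM with LPS alone. Ptges, the inducible prostaglandin E synthase, was at 243, 187 and 185 CPM with dexamethasone plus LPS, against 735, 712 and 661 CPM with LPS alone (log2 fold change -1.78 ± 0.09, adjusted p = 5e-14). Both were lower in each treated library than in any LPS library. The constitutive forms went up. Ptgs1 (COX-1) was at 4.94 ± 1.25 CPM with dexamethasone plus LPS and 1.91 ± 0.212 CPM with LPS alone (log2 fold change 1.37 ± 0.20, adjusted p = 7.6e-07). Ptges2 was at 46.4 ± 1.92 CPM with dexamethasone plus LPS and 22 ± 2.01 CPM with LPS alone (log2 fold change 1.08 ± 0.10, adjusted p = 6.1e-11). Alox5ap, the partner of 5-lipoxygenase in leukotriene synthesis, was higher as well (219 ± 9.76 CPM with dexamethasone plus LPS against 114 ± 4.98 CPM with LPS alone, log2 fold change 0.94 ± 0.05, adjusted p = 6.6e-17). Over 13 genes 4 rose and 5 fell. Receptors for prostaglandins and purines had 4 of 15 higher, including P2ry12 (log2 fold change 1.77 ± 0.19, adjusted p = 2.6e-09), P2ry13 (log2 fold change 1.40 ± 0.10, adjusted p = 3.1e-14) and Entpd1, the ectonucleotidase CD39 (log2 fold change 1.14 ± 0.12, adjusted p = 2e-09), and 7 lower, including P2ry14 (log2 fold change -1.09 ± 0.10, adjusted p = 6e-12) and P2ry2 (log2 fold change -1.06 ± 0.07, adjusted p = 1.1e-14).

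Metabolic genes changed as blocks. Of 24 genes of glycolysis, including sugar and lactate transporters, 20 fell and 2 rose, with a median of -0.81. Slc16a3, the lactate exporter MCT4, was at 82, 67.1 and 72.1 CPM with dexamethasone plus LPS, against 504, 530.0 and 444 CPM with LPS alone. The fall was more than 5-fold in every pairing of libraries (log2 fold change -2.74 ± 0.10, adjusted p = 3e-16). Slc2a1, the glucose transporter GLUT1, was at 62.4 ± 5.22 CPM with dexamethasone plus LPS and 217 ± 14.8 CPM with LPS alone (log2 fold change -1.80 ± 0.07, adjusted p = 2.2e-21). Ldha, which turns pyruvate into lactate, was at 831, 741 and 722 CPM with dexamethasone plus LPS, against 1881, 1983 and 1882 CPM with LPS alone (log2 fold change -1.32 ± 0.06, adjusted p = 6e-21). Other enzymes of the pathway fell as well, with Tpi1 at -1.63 ± 0.06, Gapdh at -1.32 ± 0.05 and Pkm at -1.32 ± 0.06 on the log2 scale. The 2 rises were Slc2a3, the glucose transporter GLUT3 (16 ± 1.55 CPM with dexamethasone plus LPS against 3.81 ± 0.503 CPM with LPS alone, log2 fold change 2.07 ± 0.14, adjusted p = 1.2e-14), and Pfkfb3. Pfkfb3 makes the allosteric activator of phosphofructokinase (1783 ± 161 CPM with dexamethasone plus LPS against 1214 ± 86.5 CPM with LPS alone, log2 fold change 0.55 ± 0.07, adjusted p = 9.5e-09).

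The hypoxia response fell with glycolysis, with 13 of 16 genes lower, 1 higher and a median of -1.55. Hif1a, the oxygen-regulated subunit itself, was at 157, 136 and 135 CPM with dexamethasone plus LPS, against 740.2, 787 and 728 CPM with LPS alone. The groups are far apart (log2 fold change -2.40 ± 0.06, adjusted p = 3e-27). Vegfa, the endothelial growth factor, was at 9.85, 7.5 and 7.37 CPM with dexamethasone plus LPS, against 142, 136 and 136 CPM with LPS alone (log2 fold change -4.06 ± 0.12, adjusted p = 1.2e-21). Egln3, a HIF prolyl hydroxylase, and Ankrd37 were lower too (log2 fold change -3.30 ± 0.28, adjusted p = 7.7e-10; log2 fold change -3.59 ± 0.26, adjusted p = 2.3e-14). Pdk1, the kinase that closes off pyruvate dehydrogenase, was at 51.8 ± 3 CPM with dexamethasone plus LPS and 149 ± 11.3 CPM with LPS alone (log2 fold change -1.53 ± 0.08, adjusted p = 8.2e-18). Car9 was the single rise (log2 fold change 0.43 ± 0.16, adjusted p = 0.025), and its call is lost with no filter on low counts (0.429, adjusted p = 0.0808), without dexamethasone plus LPS library 2 (0.433, adjusted p = 0.053) or 3 (0.339, adjusted p = 0.133) and without LPS library 1 (0.342, adjusted p = 0.13) or 2 (0.397, adjusted p = 0.0789).

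The hypoxia response element core ACGTG, sought on both strands, occurs in 19.6% of all windows, in 24.9% of those of tested genes, in 24.4% of those of genes lower by 2-fold or more, in 18 of 35 windows (51.4%) of the glycolysis list and in 12 of 18 (66.7%) of the hypoxia list. The windows of Pgk1 and Slc2a1 are printed as examples of glycolysis genes that fell and carry it near the start. Pgk1, which yields the first ATP of glycolysis, was at 414 ± 24.1 CPM with dexamethasone plus LPS and 1035 ± 52.3 CPM with LPS alone (log2 fold change -1.32 ± 0.06, adjusted p = 4.1e-20). Capitals mark the matches, 150 and 131 bases before the start in Pgk1 (chrX:106186850-106187149, plus strand) and 36 bases before the start in Slc2a1 (chr4:119108495-119108794, plus strand).
Pgk1: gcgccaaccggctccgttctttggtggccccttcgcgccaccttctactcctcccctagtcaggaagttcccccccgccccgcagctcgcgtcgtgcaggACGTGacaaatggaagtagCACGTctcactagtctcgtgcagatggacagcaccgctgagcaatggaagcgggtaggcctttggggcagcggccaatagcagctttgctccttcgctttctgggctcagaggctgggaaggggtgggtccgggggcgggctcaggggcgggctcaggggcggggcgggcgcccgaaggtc
Slc2a1: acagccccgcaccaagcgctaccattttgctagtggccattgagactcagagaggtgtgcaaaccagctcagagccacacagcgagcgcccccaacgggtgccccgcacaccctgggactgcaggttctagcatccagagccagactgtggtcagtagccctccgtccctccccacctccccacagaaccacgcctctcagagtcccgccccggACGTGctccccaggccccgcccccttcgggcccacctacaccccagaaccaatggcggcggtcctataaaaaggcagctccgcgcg
The core of the glucocorticoid response element, ACANNNTGT, is its own reverse complement and lies in 6.8% of all windows, in 4.5% of those of tested genes, in 6.3% of those of genes higher by 2-fold or more, in 6.0% of those lower by 2-fold or more and in 3 of 25 windows (12.0%) of the glucocorticoid targets. The windows of Fkbp5, Per1, Tsc22d3, Hif3a and Klf9 held no match, which says nothing on elements outside these windows or of other letters.

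**Figure D3:**
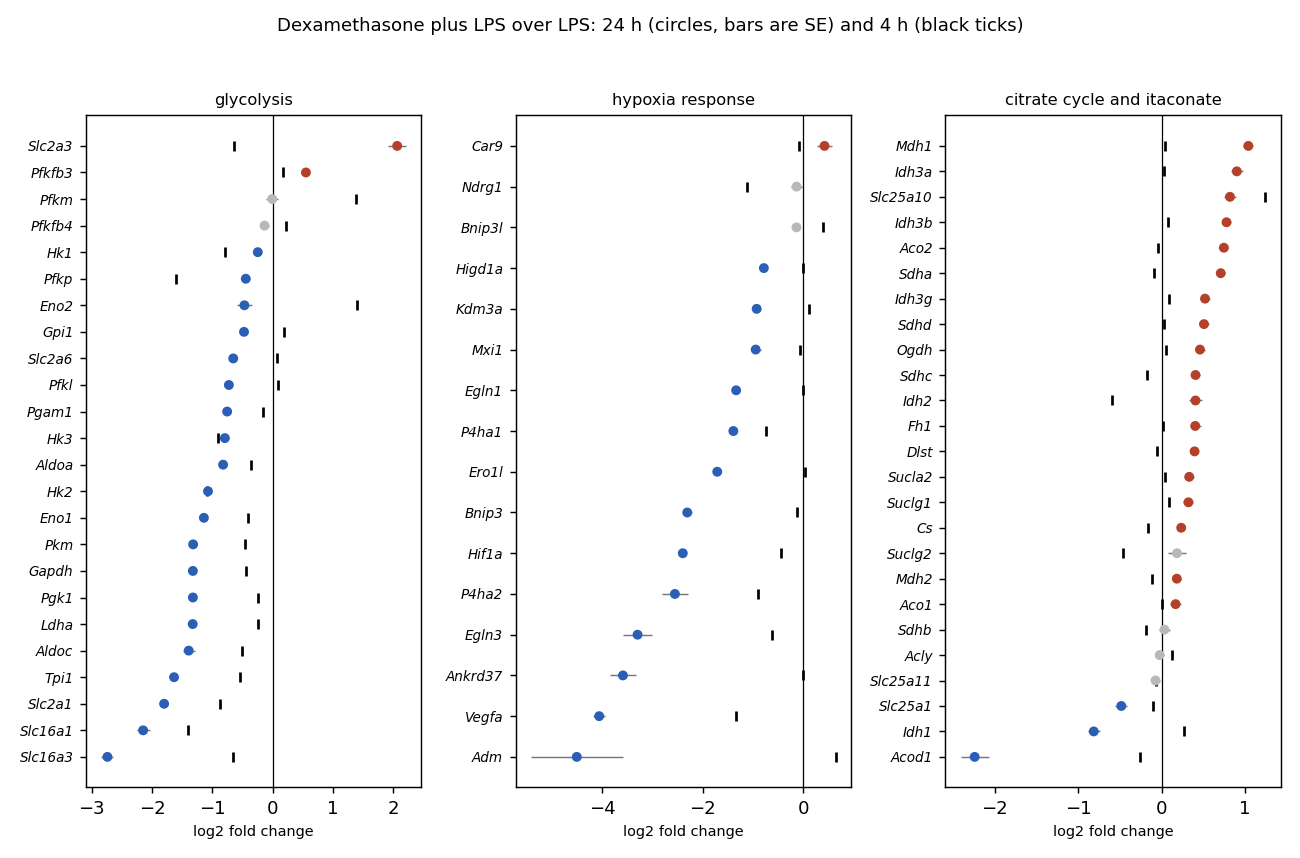
Log2 fold change of dexamethasone plus LPS over LPS alone for the genes of 3 lists, at 24 h (circles with SE, red called higher, blue called lower, grey not called) and at 4 h (black ticks). At 24 h most glycolysis and hypoxia genes lie below 0 and most citrate cycle genes above 0, while at 4 h the ticks of the citrate cycle genes lie near 0 apart from a few such as Slc25a10.

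Mitochondrial genes moved the opposite way, by smaller amounts. Of 25 genes of the citrate cycle and its carriers 18 rose and 3 fell (median 0.40). Mdh1, malate dehydrogenase, was at 267, 259 and 239 CPM with dexamethasone plus LPS, against 116, 124 and 131 CPM with LPS alone, so that its libraries are apart (log2 fold change 1.04 ± 0.06, adjusted p = 7e-17). Idh3a, a subunit of the NAD-linked isocitrate dehydrogenase, was at 91.6 ± 7.08 CPM with dexamethasone plus LPS and 49 ± 1.37 CPM with LPS alone (log2 fold change 0.90 ± 0.07, adjusted p = 3.3e-13). Sdha, the catalytic subunit of succinate dehydrogenase, was at 454 ± 6.58 CPM with dexamethasone plus LPS and 278 ± 6 CPM with LPS alone (log2 fold change 0.71 ± 0.05, adjusted p = 1.8e-15). The 3 falls were Acod1, which diverts aconitate to itaconate (-2.24 ± 0.17), Idh1, the cytosolic isocitrate dehydrogenase (log2 fold change -0.81 ± 0.07, adjusted p = 8.6e-11), and Slc25a1, the citrate exporter (log2 fold change -0.48 ± 0.07, adjusted p = 7.7e-07). Of 77 nuclear respiratory chain genes, among them Sdha, Sdhb, Sdhc and Sdhd of the citrate cycle list, 58 rose and none fell (median 0.35). The largest rise was that of Ndufv2, a complex I subunit (123 ± 5.61 CPM with dexamethasone plus LPS against 67.1 ± 1.69 CPM with LPS alone, log2 fold change 0.87 ± 0.06, adjusted p = 2.2e-14). Atp5a1, the alpha subunit of ATP synthase, was at 927 ± 24.3 CPM with dexamethasone plus LPS and 570.0 ± 9.78 CPM with LPS alone (log2 fold change 0.70 ± 0.05, adjusted p = 2e-15).

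Of the 13 proteins encoded in mitochondrial DNA 10 were called higher (median 0.40), among them mt-Nd1 (log2 fold change 0.45 ± 0.07, adjusted p = 2.7e-06). That count rests on single libraries: it is 5 without dexamethasone plus LPS library 1, 5 without library 2 of that group, 2 without LPS library 1 and 6 without LPS library 3. The share of all counts on mitochondrial genes was 1.31 to 1.33% in the dexamethasone plus LPS libraries and 0.97 to 1.22% in the LPS libraries. Of 14 genes that govern pyruvate entry into mitochondria 7 rose, including Pdha1 of the dehydrogenase (log2 fold change 0.53 ± 0.06, adjusted p = 5.4e-10), and 4 fell. Of 22 genes of fatty acid oxidation 14 rose and 2 fell (median 0.24), with Eci2 (log2 fold change 1.21 ± 0.08, adjusted p = 1.1e-14) and Acaa2 (log2 fold change 0.92 ± 0.08, adjusted p = 4.2e-12) foremost among the rises. Cpt1a, which admits long-chain fatty acids to mitochondria, was lower (41.2 ± 0.777 CPM with dexamethasone plus LPS against 64.7 ± 1.43 CPM with LPS alone, log2 fold change -0.65 ± 0.07, adjusted p = 3.6e-10).

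Antioxidant genes were lower and iron genes were split. Of 17 genes of the Nrf2 response, the cell's answer to oxidants, 15 were lower and none higher (median -1.05). Prdx1, a peroxidase, was at 403, 396 and 392 CPM with dexamethasone plus LPS, against 2078, 1653 and 1599 CPM with LPS alone (log2 fold change -2.16 ± 0.08, adjusted p = 7.3e-18). Hmox1, the haem-degrading oxygenase, was at 476 ± 15.7 CPM with dexamethasone plus LPS and 1588 ± 241 CPM with LPS alone (log2 fold change -1.74 ± 0.08, adjusted p = 1.8e-15). Gclm, which makes glutathione, was at 34.6 ± 3 CPM with dexamethasone plus LPS and 129 ± 26.9 CPM with LPS alone (log2 fold change -1.90 ± 0.14, adjusted p = 1.4e-09). Iron handling had 4 of 17 genes higher and 8 lower, beside 21% and 22.6% of all genes. Slc40a1, the iron exporter ferroportin, was at 1.18 ± 0.681 CPM with dexamethasone plus LPS and 11.1 ± 2.9 CPM with LPS alone (log2 fold change -3.24 ± 0.21, adjusted p = 2.8e-13). Slc48a1, a haem transporter, was at 131 ± 4.5 CPM with dexamethasone plus LPS and 551 ± 47.1 CPM with LPS alone (log2 fold change -2.08 ± 0.07, adjusted p = 5e-24). In contrast, the receptor and carrier for haemoglobin rose together. Cd163, the scavenger receptor for haptoglobin-haemoglobin complexes, was at 167, 167 and 168 CPM with dexamethasone plus LPS, against 25.1, 27.4 and 30.8 CPM with LPS alone (log2 fold change 2.59 ± 0.08, adjusted p = 2.6e-23). Hp, which codes for haptoglobin, was at 14573, 12538 and 12157 CPM with dexamethasone plus LPS, against 1738, 1640.5 and 1578 CPM with LPS alone (log2 fold change 2.99 ± 0.11, adjusted p = 3.4e-15).

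Haptoglobin belongs to a list of acute phase and secreted antimicrobial proteins, of which 10 of 15 tested genes rose and 4 fell (median 1.60, and 0.98 over 17 genes with no filter on low counts). Lcn2, lipocalin 2, which starves bacteria of iron, was at 12334, 11413 and 10755 CPM with dexamethasone plus LPS, against 1307, 1389.6 and 1361 CPM with LPS alone. It made up 1.09 to 1.23% of all counts in the treated libraries and 0.13 to 0.14% in the LPS libraries (log2 fold change 3.09 ± 0.14, adjusted p = 2.2e-12). Ptx3, a long pentraxin that opsonises microbes, was at 73, 61.1 and 60.9 CPM with dexamethasone plus LPS, against 0.918, 0.677 and 1.39 CPM with LPS alone (log2 fold change 6.02 ± 0.20, adjusted p = 8e-16). Cp, the copper oxidase ceruloplasmin, was at 2269 ± 134 CPM with dexamethasone plus LPS and 463 ± 28.4 CPM with LPS alone (log2 fold change 2.29 ± 0.12, adjusted p = 7.8e-12). Saa3, serum amyloid A3, held 7.35 to 7.68% of all counts with dexamethasone plus LPS and 5.48 to 5.94% with LPS alone. Its call (log2 fold change 0.34 ± 0.13, adjusted p = 0.041) is lost with no filter on low counts (adjusted p = 0.0805), with DESeq2 (adjusted p = 0.501), with the replicate number as a block (adjusted p = 0.0646) and without any 1 of the 6 libraries. Slpi, a secreted protease inhibitor, was among the falls (14.2 ± 1.97 CPM with dexamethasone plus LPS against 71.9 ± 8.15 CPM with LPS alone, log2 fold change -2.34 ± 0.16, adjusted p = 1.7e-13). The neutrophil marker list, which holds Lcn2, summed to 11000 to 12600 CPM with dexamethasone plus LPS and 1550 to 1670 CPM with LPS alone. Most of both sums was Lcn2, at means of 11500 CPM with dexamethasone plus LPS and 1350 CPM with LPS alone. Of 13 tested markers 3 were higher and 3 lower, not far from the 21% and 22.6% of all genes. Besides Lcn2, the higher markers were the collagenase Mmp8 and the calcium-binding S100a8. Mmp8 was at a mean of 82.6 CPM with dexamethasone plus LPS against 16.9 CPM with LPS alone. S100a8 was at 18.6 CPM with dexamethasone plus LPS against 6.6 CPM with LPS alone. S100a9 of the same list had 44 counts with dexamethasone plus LPS and 45 with LPS alone. The G-CSF receptor Csf3r was lower (143 CPM with dexamethasone plus LPS against 235 CPM with LPS alone), as were Camp, which codes for an antimicrobial cathelicidin (19 counts with dexamethasone plus LPS against 114 with LPS alone), and Ltf, lactoferrin (no count with dexamethasone plus LPS against 9 with LPS alone). The granule and lineage genes Mpo, Elane, Ngp and Ly6g had 9 counts or fewer per group, and the part of other neutrophil genes in these values was not tested.

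At 24 h under LPS, genes for the clearance of dying cells and for alternative activation rose more often than they fell. Over all genes 21% rose and 22.6% fell. For the uptake of apoptotic cells 9 of 19 genes rose and 5 fell (median 0.42). Without dexamethasone plus LPS library 2 or 3, or without LPS library 1, that median is 0.195, 0.229 or 0.201. The same list had 4 genes higher and 10 lower under LPS at 4 h (median -0.54), where 23.9% of all genes were higher and 25.4% lower. With dexamethasone alone at 24 h it had 6 higher and 9 lower (median -0.355), where 21.9% of all genes were higher and 26.5% lower. Mertk, a receptor that binds dying cells through Gas6 and protein S, was at 267, 288 and 279.5 CPM with dexamethasone plus LPS, against 70.4, 80.0 and 83.8 CPM with LPS alone (log2 fold change 1.83 ± 0.09, adjusted p = 4.8e-14). Itgb3, the β3 integrin chain that pairs with Itgav, was at 37.5 ± 4.45 CPM with dexamethasone plus LPS and 1.3 ± 0.507 CPM with LPS alone (log2 fold change 4.85 ± 0.23, adjusted p = 3.5e-16). The C1q chains that start the classical complement pathway and tag debris rose in step, with log2 fold changes of 1.24 ± 0.15 for C1qa, 0.94 ± 0.08 for C1qb and 0.86 ± 0.09 for C1qc. Cd36, a receptor for oxidised lipids, fell instead, at 9.16, 15.2 and 14.5 CPM with dexamethasone plus LPS and 186, 174 and 156 CPM with LPS alone (log2 fold change -3.73 ± 0.17, adjusted p = 2.7e-12). Anxa1, a glucocorticoid-regulated mediator of resolution, was at 165 ± 8.87 CPM with dexamethasone plus LPS and 101 ± 6.12 CPM with LPS alone (log2 fold change 0.70 ± 0.07, adjusted p = 2.6e-10).

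Of 18 markers of alternative activation 9 rose and 6 fell (median 0.44), a median that is 0.13 over 20 genes with no filter on low counts and 0.96 over 16 genes with the 6 libraries only. Chil3, the chitinase-like protein Ym1, was at 50.2, 65.4 and 63.7 CPM with dexamethasone plus LPS, against 0.643, 1.3 and 1.44 CPM with LPS alone (log2 fold change 5.74 ± 0.26, adjusted p = 8.1e-13). F13a1, coagulation factor XIII A, was at 383, 409.5 and 416 CPM with dexamethasone plus LPS, against 19.3, 36.3 and 29.4 CPM with LPS alone (log2 fold change 3.84 ± 0.28, adjusted p = 2.8e-09). Mrc1, the mannose receptor, was at 54.1 ± 10.5 CPM with dexamethasone plus LPS and 22 ± 3.44 CPM with LPS alone (log2 fold change 1.30 ± 0.22, adjusted p = 0.00011). The falls besides Arg1 and Cd36 included Clec7a, the β-glucan receptor Dectin-1 (1.75 ± 0.305 CPM with dexamethasone plus LPS against 15.3 ± 2.93 CPM with LPS alone, log2 fold change -3.13 ± 0.21, adjusted p = 1.2e-11). Msr1, the class A scavenger receptor, was lower too (278 ± 27.5 CPM with dexamethasone plus LPS against 763 ± 30.1 CPM with LPS alone, log2 fold change -1.46 ± 0.06, adjusted p = 2.6e-21).

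Proliferation genes were higher with dexamethasone plus LPS. Of 30 cell cycle genes 24 rose and 1 fell (median 0.86). Ccnb2, a mitotic cyclin, was at 12.7, 11.1 and 9.92 CPM with dexamethasone plus LPS, against 0.918, 0.989 and 1.59 CPM with LPS alone (log2 fold change 3.27 ± 0.20, adjusted p = 3.7e-15). Ccna2, the cyclin of S and G2 phase, was at 15.1, 12.3 and 12.7 CPM with dexamethasone plus LPS, against 1.28, 2.08 and 1.64 CPM with LPS alone (log2 fold change 3.01 ± 0.21, adjusted p = 7.3e-12). Plk1, a mitotic kinase, and Cdc20, an activator of the anaphase-promoting complex, had log2 fold changes of 2.77 ± 0.20 and 2.70 ± 0.21. The exception was Pcna, the replication clamp (log2 fold change -0.30 ± 0.07, adjusted p = 0.00054). Cdkn1a, the cell cycle inhibitor p21, was at 128, 119 and 116 CPM with dexamethasone plus LPS, against 399, 326 and 303 CPM with LPS alone (log2 fold change -1.50 ± 0.09, adjusted p = 3.9e-13). Deptor, an inhibitor of mTOR, was higher (93.7 ± 0.932 CPM with dexamethasone plus LPS against 11.1 ± 0.588 CPM with LPS alone, log2 fold change 3.07 ± 0.08, adjusted p = 5e-28).

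**Figure D4:**
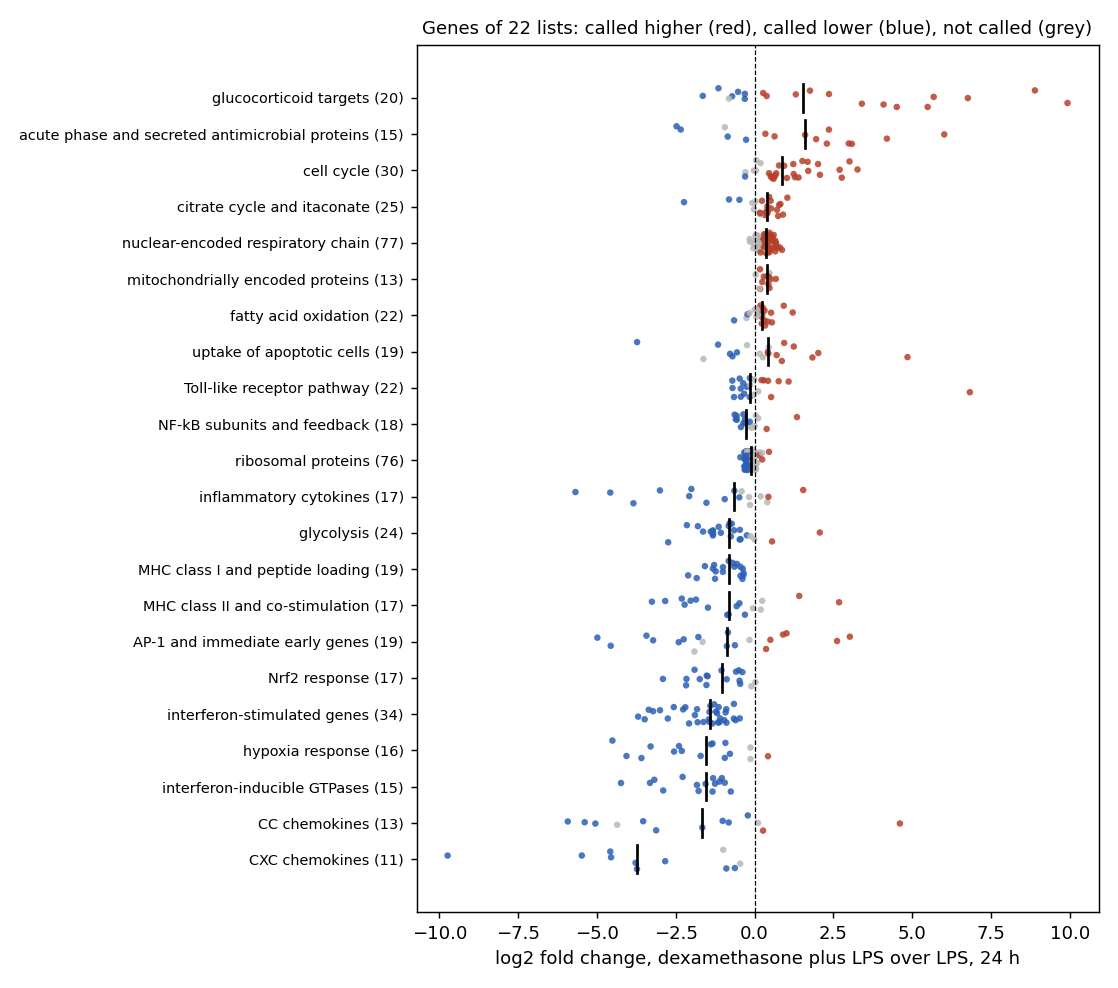
Log2 fold change (dexamethasone plus LPS over LPS alone, 24 h) of each tested gene of 22 lists, with the number of tested genes after the list's name and a black bar at the median. Glucocorticoid targets, acute phase and secreted antimicrobial proteins, and cell cycle genes have medians of 1.53, 1.60 and 0.86. CXC chemokines, CC chemokines and interferon-inducible GTPases have medians of -3.73, -1.66 and -1.55.

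The largest rises and falls of all were seen in genes with little or no signal in 1 of the groups. Dnah12, an axonemal dynein gene, had 859 counts with dexamethasone plus LPS and none with LPS alone, at least 304-fold higher against 3 counts over the group. Jaml, a junctional adhesion protein of leukocytes, was at 131, 132 and 119.8 CPM with dexamethasone plus LPS, against 0.184, 0.417 and 0.248 CPM with LPS alone (log2 fold change 8.81 ± 0.17, adjusted p = 7.4e-28). Sult1a1, a sulfotransferase, was at 214, 189 and 179.6 CPM with dexamethasone plus LPS, against 0.367, 0.469 and 0.596 CPM with LPS alone (log2 fold change 8.66 ± 0.19, adjusted p = 5.3e-21). Fzd4, a Wnt receptor, rose alongside (64.7 ± 17.8 CPM with dexamethasone plus LPS against 0.17 ± 0.171 CPM with LPS alone, log2 fold change 8.57 ± 0.29, adjusted p = 8.9e-21). Among the falls, Serpinb2, the plasminogen activator inhibitor PAI-2, was at 0.262, 0.155 and 0.519 CPM with dexamethasone plus LPS, against 101, 121 and 92 CPM with LPS alone (log2 fold change -8.36 ± 0.21, adjusted p = 4.3e-24). Ednrb, the endothelin receptor B, was at 0.262, 0.207 and 0.363 CPM with dexamethasone plus LPS, against 64.9, 48.2 and 46.8 CPM with LPS alone (log2 fold change -7.56 ± 0.28, adjusted p = 1.9e-18). Serpinb2 belongs to the matrix proteases and plasminogen activators, of which 11 of 17 fell and 2 rose (median -0.61, and -1.15 with the 6 libraries or -1.17 with the 12 libraries of 24 h alone), with the matrix metalloproteinases Mmp13 at -5.32 ± 0.23 and Mmp12 at -4.67 ± 0.50 on the log2 scale. Procr, the protein C receptor, was lower as well (log2 fold change -4.64 ± 0.22, adjusted p = 1.2e-13).

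Several abundant transcripts were among the changes of 2-fold or more. Acsl1, which activates long-chain fatty acids, was at 376, 361 and 409.6 CPM with dexamethasone plus LPS, against 2333, 2130.1 and 2135 CPM with LPS alone (log2 fold change -2.52 ± 0.06, adjusted p = 4.3e-29). Ftl1, the ferritin light chain, was at 1079 ± 9.55 CPM with dexamethasone plus LPS and 2490.3 ± 237 CPM with LPS alone (log2 fold change -1.21 ± 0.07, adjusted p = 7.2e-17), though ferritin light chain copies in the genome make its count uncertain. Selenop, the selenium carrier, was at 1231 ± 68.9 CPM with dexamethasone plus LPS and 343 ± 47.1 CPM with LPS alone (log2 fold change 1.84 ± 0.11, adjusted p = 2.1e-11). Serinc3, a membrane protein, was at 2767 ± 102 CPM with dexamethasone plus LPS and 523 ± 26.9 CPM with LPS alone (log2 fold change 2.40 ± 0.06, adjusted p = 1.1e-27).

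The design asks about time, and the dexamethasone effect under LPS at 24 h was set against that at 4 h by a test of the difference, which called 38.8% of genes. These comparisons share no library. Of the 6545 genes called at 24 h, 4182 (63.9%) were also called at 4 h (56.6% of the 4 h calls), 3178 of them in the same direction and 1004 in the opposite one. Across the 14985 genes Pearson's r was 0.413 and Spearman's rho 0.332, as a description, since genes are not independent replicates. Tnf had a log2 fold change of -2.01 ± 0.08 at 24 h and -0.02 ± 0.06 at 4 h, a difference of -1.99 ± 0.10, adjusted p = 1.9e-17. Acod1 had -2.24 ± 0.17 at 24 h and -0.25 ± 0.16 at 4 h (difference -1.99 ± 0.23, adjusted p = 1.6e-06). Cxcl1 was lower at 24 h and higher at 4 h, with -4.55 ± 0.29 at 24 h and 1.48 ± 0.10 at 4 h (difference -6.03 ± 0.29, adjusted p = 1.7e-13). Hif1a had -2.40 ± 0.06 at 24 h and -0.43 ± 0.06 at 4 h (difference -1.96 ± 0.08, adjusted p = 6e-20).

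By group, 27 of 34 interferon-stimulated genes had a more negative effect at 24 h than at 4 h and 1 a more positive one, where 19.8% and 19% of all genes did so. All 34 were already lower with dexamethasone plus LPS at 4 h, by a smaller median (-0.65). For glycolysis the counts were 18 and 4 of 24, for the hypoxia response 14 and 1 of 16, for the Nrf2 response 15 and 0 of 17 and for cholesterol synthesis 19 and 0 of 22. At 4 h glycolysis already had 17 of 24 genes lower and 5 higher (median -0.42). The hypoxia list had 5 of 16 lower and 1 higher at that time (median -0.07). Effects more positive at 24 h were called for 56 of 77 nuclear respiratory chain genes with none more negative, and for 17 of 25 citrate cycle genes with 4 more negative. At 4 h the respiratory chain list had 7 genes higher and 25 lower with dexamethasone plus LPS (median -0.11, where 49.3% of all genes were called, 23.9% higher and 25.4% lower). Cholesterol synthesis had 19 of 22 higher at 4 h (median 1.13), and at 24 h 1 higher and 8 lower (median -0.24). The count of 8 falls to 4 without dexamethasone plus LPS library 1 or without LPS library 2. Mvd, a decarboxylase of the pathway and its single rise at 24 h, had a log2 fold change of 0.26 ± 0.08 at 24 h and 2.45 ± 0.11 at 4 h. The call at 24 h is lost without LPS library 3 (0.221, adjusted p = 0.063).

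The drug was also given without LPS, in separate libraries of dexamethasone alone and untreated cells at 24 h. A difference between the 2 effects was called for 38.2% of genes. Of the 6545 genes called under LPS, 4100 (62.6%) were called without it (56.5% of those calls), 2838 in the same direction and 1262 in the opposite one, of which 767 rose under LPS and fell without it. Pearson's r across the 14985 genes was 0.322 and Spearman's rho 0.245. The cell cycle list had opposite signs. All 30 genes were lower with dexamethasone alone (median -2.11, where 48.4% of all genes were called, 21.9% higher and 26.5% lower), and the difference was more positive under LPS in 29 of 30, where 20.5% of all genes were. Ccnb2 was at 4.71 ± 0.753 CPM with dexamethasone alone and 24.2 ± 1.77 CPM in untreated cells (-2.36 ± 0.13, adjusted p = 5.4e-16). Its levels in the 6 LPS libraries, given above, all lay below that untreated mean.

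Respiratory chain genes also differed. With dexamethasone alone 5 of 77 were higher and 30 lower (median -0.11), and the effect was more positive under LPS in 61 of 77 with none more negative. Hypoxia genes were more negative under LPS in 14 of 16, where 17.7% of all genes were, and Hif1a was at 68.1 ± 1.84 CPM with dexamethasone alone and 72.9 ± 3.72 CPM in untreated cells (-0.10 ± 0.06, adjusted p = 0.21). With dexamethasone alone the hypoxia list had 5 genes higher and 5 lower (median 0.158). Glycolysis had 6 of 24 higher and 17 lower without LPS (median -0.445), where 26.5% of all genes were lower. The glycolysis effect was more negative under LPS in 17 genes and more positive in 6. Of the interferon-stimulated genes 8 had a more positive and 4 a more negative effect under LPS, with the other 22 not called for the difference. With dexamethasone alone 33 of the 34 were lower and none higher (median -1.64). Ptx3 had no count with dexamethasone alone and 0.0782 ± 0.136 CPM in untreated cells, a difference that was not called and rests on few counts. Its effect was 6.02 ± 0.20 under LPS and -3.96 ± 2.15 without it (difference 9.98 ± 2.22, adjusted p = 0.0011). Arg1 fell under LPS, while its effect without LPS was 1.36 ± 0.99, adjusted p = 0.27 (difference -8.89 ± 1.28, adjusted p = 6.1e-07). Hp had an effect of 2.99 ± 0.11 under LPS and of 9.55 ± 0.23 without it, where it was at 165 ± 19.9 CPM with dexamethasone alone and 0.217 ± 0.123 CPM in untreated cells. Saa3 had 0.34 ± 0.13 under LPS and 8.48 ± 0.27 without it. Fkbp5 rose by 6.77 ± 0.08 under LPS and by 5.98 ± 0.08 without (difference 0.78 ± 0.11, adjusted p = 3e-07).

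**Figure D5:**
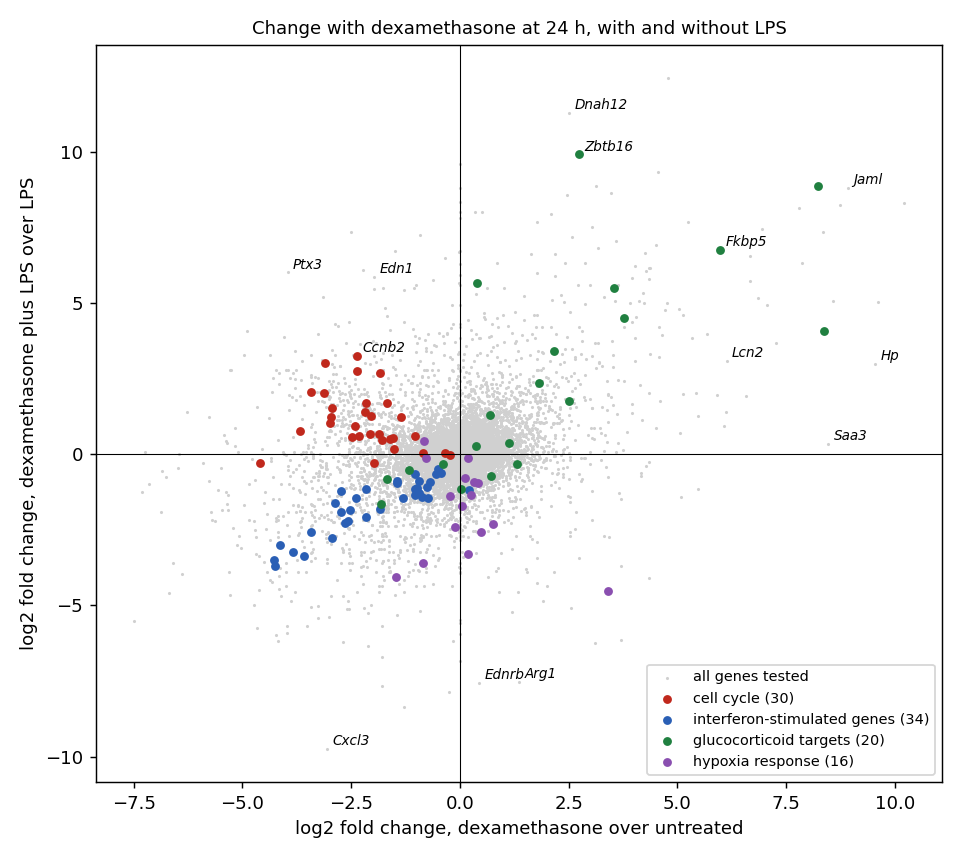
Log2 fold change with dexamethasone at 24 h under LPS (dexamethasone plus LPS over LPS alone, vertical axis) against that without LPS (dexamethasone over untreated, horizontal axis), for all 14985 genes (grey) and 4 lists. Cell cycle genes (red) lie at the left and mostly above 0, interferon-stimulated genes (blue) lower left, glucocorticoid targets (green) mostly upper right, and hypoxia genes (purple) below 0 near the middle of the horizontal axis.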

How the data were processed

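RNA-seq read pairs per gene were counted by the authors, and the deposited table holds whole-number counts that are not scaled. Per the file headers, the authors used featureCounts 2.0.0 on read pairs, unstranded, over the exons of GENCODE M29, and counted neither read pairs that match several places nor those that overlap several genes, so near-identical genes are undercounted and antisense partners cannot be told apart. The submitters' processing notes name STAR, without a version, and the builds GRCm38 and mm10, while GENCODE M29 annotates GRCm39, so no coordinates of the table are printed. Of 55357 gene IDs 52081 were given symbols through GENCODE M21.

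The 24 libraries held 18326206 to 27908164 counts. Their groups and replicate numbers come from the labels. They were fitted together, each group with its own mean, by edgeR 4.0.16 under R 4.3.3 with limma 3.58.1, using glmQLFit with robust estimation and glmQLFTest, after TMM scaling and filterByExpr with 8 groups. Tests were two-sided, with Benjamini-Hochberg adjustment and a threshold of 0.05. Standard errors were obtained by dividing each log2 fold change by the root of its F. CPM are the deposited counts over the TMM-scaled library size. The fit was tested on simulated counts of 14733 genes: 79.4% of 68 genes changed by 0.5 on the log2 scale were recovered, as were 100% of 66 genes changed by 1, with 12 false calls among 14533 unchanged genes. Far fewer genes were changed there than in the real comparison, and none with low counts. Its spread followed a trend with level, without spreads of single genes. These figures therefore do not give the error rates of the real comparison. Ratios from counts carry 95% intervals that cover counting error only, with a floor of 3 counts over a group. Promoter windows are those of RefSeq on GRCm38.p6 and were matched by symbol. Of the genes the text turns on, Nos2 and Zbtb16 have no window there.

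The gene lists and the comparison were chosen with earlier results of these data known, and lists are described by counts and medians without a test. Each list count at 24 h under LPS stands against 21% higher and 22.6% lower over all genes, and some lie near those shares. Some genes, such as Cd36 and Cxcl10, stand in several lists, so the lists are not independent of each other. Named genes were the 12 largest rises and falls among called genes with a mean of at least 5 CPM, groups without overlap and no provisional symbol, the 8 most abundant rises and falls of 2-fold or more, up to 4 rises, 4 falls and 2 uncalled genes per list, a panel of standard genes, and the 5 largest differences each way between times and between conditions with and without LPS. Those differences were ranked only among genes also called in the comparison, with a mean of at least 5 CPM. Ifit1, Irf7, Irf9, Stat2, Pgk1, Ifnb1 and Ccl17 were chosen after their values were seen. Alternatives were RLE scaling, library size only, no filter on low counts, DESeq2 1.42.0, fits to 6 or 12 libraries, a replicate block and leaving out each library.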

Additional observations from a re-analysis of the deposited data

Results flagged for a closer look

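The genes below were singled out because a test of the difference itself (edgeR's quasi-likelihood test) found that the dexamethasone effect differed between times or between conditions with and without LPS. Under LPS, the effect at 24 h minus that at 4 h was most positive for Dnah12 (8.98 on the log2 scale), Fn1, which codes for the matrix protein fibronectin (7.45), Steap4, a metalloreductase (6.41), and the serpins Serpina3f (6.1) and Serpina3g (5.96). The Serpina3 genes are a family of close copies, so the split of their counts is uncertain. The same difference was most negative for Cxcl3 (-9.17), Cxcl1 (-6.03), Ednrb (-5.74), Arg1 (-5.56) and Hsd17b14, a steroid dehydrogenase family gene (-5.42).

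At 24 h, the effect with LPS minus that without it was most positive for Ptx3 (9.98), Dnah12 (8.79), Serpina3f (8.35), Edn1, which codes for the vasoconstrictor endothelin 1 (7.84), and Serpina3g (7.45). It was most negative for Arg1 (-8.89), Saa3 (-8.13), Ednrb (-8.0), Wnk2 (-6.64) and Hp (-6.56). Edn1 was at 63.5 ± 8.16 CPM with dexamethasone plus LPS and 1.07 ± 0.201 CPM with LPS alone (log2 fold change 5.87 ± 0.12, adjusted p = 5e-28), so that the ligand was higher while its receptor Ednrb was lower. Values that rest on groups with few counts, such as those of Dnah12, Ptx3 without LPS and Cxcl3, depend on the prior count of the fit.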

How the results depend on the processing

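No call of the reported fit changed direction under any of 13 alternatives. The counts of higher and lower genes were 3397 and 3137 with RLE scaling, 3476 and 3040 with library size only, 3010 and 3175 with no filter, 3456 and 3198 with DESeq2, 3394 and 3494 with the 6 libraries only, and 3384 and 3792 with the 12 libraries of 24 h, against 3154 and 3391 as reported. Leaving out 1 library gave 2775 to 2916 higher and 2984 to 3080 lower genes, and lost 751 to 863 of the 6545 calls. Counts by the LPS response at 4 h moved with library size only, where 706 raised genes were lower, 1775 lowered genes were higher and 820 lowered genes were lower with dexamethasone plus LPS at 24 h. The labels do not say that a replicate number links samples. Deviations of same-numbered libraries correlated by 0.021, 0.02 and 0.012 over 14985 genes, each library correlating best with its own number, but over the 6588 genes of at least 20 CPM dexamethasone plus LPS library 2 and LPS library 3 correlated better with each other (0.101) than with their own numbers (0.068 and 0.084). Over those genes the libraries of number 1 correlated by 0.127. The second principal component of the 6 libraries (5.7% of the variance) ordered the replicate numbers alike in both groups. By number it was 20.53, -5.55 and -14.91 with dexamethasone plus LPS and 17.36, -0.59 and -16.84 with LPS alone. Whether same-numbered libraries share an origin was not tested. With the replicate number as a block 3126 genes were higher and 3358 lower. The falls of cholesterol synthesis genes number 14 with the 6 libraries only. The falls of fatty acid oxidation genes number 4 with the 6 or the 12 libraries and the rises of lipid storage genes 4 with the 6 libraries. The median of the receptor's partners is 0.002 with library size only and 0.009 without LPS library 1. Depth limits genes below about 1 CPM, whose errors are large. The difference between times could not be fitted with 6 or 12 libraries of 24 h, nor that with and without LPS with 6 libraries.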

Other observations

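Clock genes were split at 24 h under LPS, with 5 of 17 higher and 9 lower with dexamethasone plus LPS (median -0.34, and -0.53 with no filter on low counts or with the 6 libraries only). Besides Per1, the repressors Cry1 (log2 fold change 1.31 ± 0.11, adjusted p = 7e-12) and Per2 (log2 fold change 1.06 ± 0.19, adjusted p = 1.9e-05) rose, and Nr1d2 (log2 fold change -1.50 ± 0.11, adjusted p = 1.2e-13) and Per3 (log2 fold change -1.50 ± 0.22, adjusted p = 5.9e-07) fell. The dexamethasone effect was more negative with LPS than without it in 12 of the 17 and more positive in 1. The list of the unfolded protein and integrated stress responses was mixed too, with 9 of 16 higher and 5 lower. Atf6, a membrane-bound sensor of unfolded protein (219.6 ± 6.38 CPM with dexamethasone plus LPS against 103 ± 0.911 CPM with LPS alone, log2 fold change 1.09 ± 0.05, adjusted p = 1.1e-19), and Herpud1, of the degradation machinery (128 ± 10.6 CPM with dexamethasone plus LPS against 40.0 ± 3.28 CPM with LPS alone, log2 fold change 1.67 ± 0.07, adjusted p = 9.9e-22), rose. Among the falls were Atf4, the transcription factor of the integrated stress response (109 ± 5.5 CPM with dexamethasone plus LPS against 224 ± 14.6 CPM with LPS alone, log2 fold change -1.04 ± 0.06, adjusted p = 7.7e-17), and its targets Asns (log2 fold change -1.46 ± 0.16, adjusted p = 1.3e-08), Trib3 (log2 fold change -1.68 ± 0.34, adjusted p = 0.0001) and Ddit3 (log2 fold change -1.08 ± 0.12, adjusted p = 7.5e-10). Another target, Chac1, did not pass the test (log2 fold change -1.47 ± 0.64, adjusted p = 0.06), but does with no filter on low counts, with DESeq2 and without LPS library 1 (adjusted p = 0.0453, 0.0273 and 0.0462).

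Adhesion genes had 9 of 19 members higher and 7 lower. Vcam1 was higher (log2 fold change 2.03 ± 0.15, adjusted p = 1.9e-13) and Itga1, the collagen-binding α1 chain, lower (log2 fold change -2.72 ± 0.23, adjusted p = 3.8e-12). Of 21 cell death regulators 12 fell and 2 rose. Mlkl and Ripk3, which carry out necroptosis, had log2 fold changes of -1.62 ± 0.11 and -1.01 ± 0.14, and Bmf, a pro-apoptotic BH3 protein, was among the rises (log2 fold change 1.93 ± 0.09, adjusted p = 6.3e-20). Of 27 lysosome genes 8 rose and 12 fell, the largest falls being the cathepsins Ctsc (202 ± 6.88 CPM with dexamethasone plus LPS against 998 ± 59.5 CPM with LPS alone, log2 fold change -2.30 ± 0.07, adjusted p = 1.6e-22) and Ctsk (log2 fold change -1.96 ± 0.17, adjusted p = 5.2e-12). Ribosomal protein genes had 32 of 76 members lower and 3 higher, with a median of -0.11 that is -0.07 without dexamethasone plus LPS library 3.

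Of 14 C-type lectins 5 rose and 7 fell, with Clec10a at 2.73 ± 0.25 on the log2 scale. Complement had 5 of 16 genes higher and 4 lower, not far from the 21% and 22.6% of all genes. The protease C1s1 was among the falls (log2 fold change -2.38 ± 0.29, adjusted p = 3.7e-08). Among genes of cholesterol export and lipid storage 10 of 21 fell, including the cholesterol pump Abca1 (log2 fold change -1.46 ± 0.11, adjusted p = 2.7e-10), and 2 rose, of which Scd1 makes monounsaturated fatty acids (log2 fold change 0.95 ± 0.22, adjusted p = 0.0012). The pentose phosphate and glycogen genes had 8 of 15 lower, among them the synthase Gys1 (log2 fold change -1.41 ± 0.08, adjusted p = 1.6e-17) and the dehydrogenase Pgd (log2 fold change -0.88 ± 0.06, adjusted p = 1.2e-15), and 3 higher. Fc and scavenger receptors had 6 of 15 higher, with the activating receptor Fcgr4 at 1.02 ± 0.11, and 5 lower, with the high-affinity receptor Fcgr1 at -1.50 ± 0.07 on the log2 scale.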
